A study of Mus musculus with 21 samples.

Results

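Immunoglobulin transcripts were followed gene by gene in the kidneys of apolipoprotein E (apoE) knockout mice fed adenine, a purine that injures the kidney when given in the diet, with or without iodomethylcholine (IMC), a compound that keeps gut bacteria from making trimethylamine. The members were the genes whose symbol marks a variable (V) segment of the heavy (Ighv), kappa (Igkv) or lambda (Iglv) locus, a constant region (Ighm, Ighg, Igha, Ighe, Igkc, Iglc), Ighd or the joining chain Jchain, and which had at least 10 reads summed over 17 mice. The symbols that fit this rule numbered 361, and 194 of them had values. Of these, Ighmbp2 encodes a helicase and was left out, which gave 193 immunoglobulin genes. The read minimum kept 183 of them, out of 21657 genes listed in all. They comprised 84 Ighv segments on chromosome 12, 86 Igkv segments on chromosome 6, 3 Iglv segments on chromosome 16, 7 heavy chain constant genes, the light chain constant genes Igkc and Iglc2, and Jchain on chromosome 5.

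An antibody pairs heavy with light chains, and each chain joins a V region, which contacts the antigen, to a constant region. During B cell development, 1 V segment of each locus is joined to shorter segments, so that all cells descending from 1 B cell transcribe the same heavy and light V segments. The heavy constant gene sets the class: Ighm encodes IgM, the Ighg genes IgG, Igha IgA and Ighe IgE, and activated B cells can switch from IgM to another class. Plasma cells, the antibody-secreting stage of the B cell, hold very large amounts of these transcripts, and B cells and plasma cells are known to gather in chronically inflamed kidneys.

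All mice were female, lacked apoE on a C57BL/6J background and were 18 weeks old, after 14 weeks on their diet from 4 weeks of age. The 5 control (Con) mice received chow, 6 adenine (Ade) mice received chow with 0.2% adenine, and 6 Ade + IMC mice received the same adenine diet with 0.06% IMC. Each library was made from the kidney of 1 mouse and covered every cell type of that organ. Libraries held 7716126 to 11680809 reads assigned to genes in Con, 5445057 to 7673499 in Ade and 5728589 to 8305968 in Ade + IMC. Transcripts of Apoe, the gene knocked out in all groups, were present at 5.07 to 28.8 CPM (reads of a gene per 1000000 gene-assigned reads) in every mouse, and the part of the gene that the knockout removes was not given in the sources used here. Proximal and distal tubule genes such as Kap, Slc34a1 and Umod were present in every library. In whole-kidney RNA, more immunoglobulin-producing cells and more immunoglobulin RNA per cell cannot be told apart.

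The V segments differ in sequence, which decides how surely a 50-base read can be given to 1 of them. Shown here are the 5 segments on which the account of single kidneys turns most, as the last 300 bases of the annotated spliced transcript, with the bases that lie in a 50-base window also found in the transcripts of another gene in capitals.
Ighv3-6: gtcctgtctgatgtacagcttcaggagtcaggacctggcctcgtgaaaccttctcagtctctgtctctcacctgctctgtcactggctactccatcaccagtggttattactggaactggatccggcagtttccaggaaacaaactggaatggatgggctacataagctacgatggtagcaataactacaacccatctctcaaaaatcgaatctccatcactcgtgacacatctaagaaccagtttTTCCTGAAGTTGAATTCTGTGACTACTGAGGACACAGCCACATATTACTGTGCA
Igkv12-89: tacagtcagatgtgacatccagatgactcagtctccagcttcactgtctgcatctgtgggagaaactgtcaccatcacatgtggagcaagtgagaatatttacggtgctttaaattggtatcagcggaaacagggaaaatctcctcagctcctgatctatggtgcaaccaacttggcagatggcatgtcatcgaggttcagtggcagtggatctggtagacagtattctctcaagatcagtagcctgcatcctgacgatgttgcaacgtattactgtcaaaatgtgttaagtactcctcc
Igkv3-2: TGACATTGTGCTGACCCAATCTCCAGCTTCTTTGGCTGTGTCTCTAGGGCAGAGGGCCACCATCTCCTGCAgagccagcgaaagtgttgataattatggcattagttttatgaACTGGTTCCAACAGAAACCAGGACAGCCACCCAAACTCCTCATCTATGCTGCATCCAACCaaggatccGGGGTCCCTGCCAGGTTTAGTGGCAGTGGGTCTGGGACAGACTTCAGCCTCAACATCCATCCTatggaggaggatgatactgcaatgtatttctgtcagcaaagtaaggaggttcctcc
Igkv3-4: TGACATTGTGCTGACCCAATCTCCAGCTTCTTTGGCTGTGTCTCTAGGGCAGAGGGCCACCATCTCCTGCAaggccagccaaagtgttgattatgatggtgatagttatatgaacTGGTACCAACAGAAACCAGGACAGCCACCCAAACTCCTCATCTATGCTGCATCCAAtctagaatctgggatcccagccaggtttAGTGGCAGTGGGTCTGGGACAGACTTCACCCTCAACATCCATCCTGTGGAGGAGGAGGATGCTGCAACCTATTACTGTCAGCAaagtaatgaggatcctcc
Igkv4-55: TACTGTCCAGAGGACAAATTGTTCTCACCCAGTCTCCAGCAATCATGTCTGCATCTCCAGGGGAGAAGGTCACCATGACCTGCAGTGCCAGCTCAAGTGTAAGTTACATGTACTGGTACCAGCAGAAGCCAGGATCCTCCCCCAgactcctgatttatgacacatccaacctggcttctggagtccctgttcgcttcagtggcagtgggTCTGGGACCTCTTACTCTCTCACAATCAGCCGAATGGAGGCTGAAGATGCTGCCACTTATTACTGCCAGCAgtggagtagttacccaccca

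In GRCm38, these lie at chr12:114288152-114288582 (minus strand, Ighv3-6), chr6:68834846-68835307 (minus strand, Igkv12-89), chr6:70698449-70699067 (plus strand, Igkv3-2), chr6:70671788-70672377 (plus strand, Igkv3-4) and chr6:69607275-69607828 (minus strand, Igkv4-55). Of the 300 bases shown, 0 were shared in Igkv12-89, 54 in Ighv3-6, 194 in Igkv3-2, 210 in Igkv3-4 and 215 in Igkv4-55. Igkv3-2 and Igkv3-4 were the same in 275 of 300 aligned bases (91.7%), whereas the other pairs of these segments shared 47.9% to 67.8%. Over whole transcripts, the windows unique to the gene made up a median of 79.1% in Ighv segments (range 0% to 100%) and 73.8% in Igkv segments (25.7% to 100%), with 10 Ighv and 19 Igkv segments wholly unique and 8 and 14 under 50%. Counts of a single segment at the low end are therefore uncertain, since reads of near-identical segments may be split between them. The constant genes and Jchain were at 92.4% to 100%.

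Immunoglobulin genes took a larger share of kidney reads in every adenine-fed mouse than in any Con mouse. In Con, the share was 0.0163% in mouse 201, 0.00482% in mouse 202, 0.00689% in mouse 301, 0.00265% in mouse 302 and 0.00475% in mouse 403. In Ade, the lowest share was 0.0641% (mouse 208), the median 0.719% (0.400% to 1.04% with any 1 mouse left out) and the highest 2.21% (mouse 308). In Ade + IMC, the lowest was 0.107% (mouse 410), the median 0.310% and the highest 6.44% (mouse 311). The ranges of the fed groups overlapped each other. The highest share was 34.5 times the lowest within Ade and 60.0 times the lowest within Ade + IMC, and mouse 311 alone was 5.75 times above the next kidney of its group. By the first digit of the mouse number, whose meaning the labels do not state, the means were 0.0106%, 0.00477% and 0.00475% in Con, 0.232%, 2.21% and 0.825% in Ade, and 0.718%, 3.34% and 0.206% in Ade + IMC for digits 2, 3 and 4. The Con kidneys were below the fed kidneys within each digit.

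**Figure D1:**
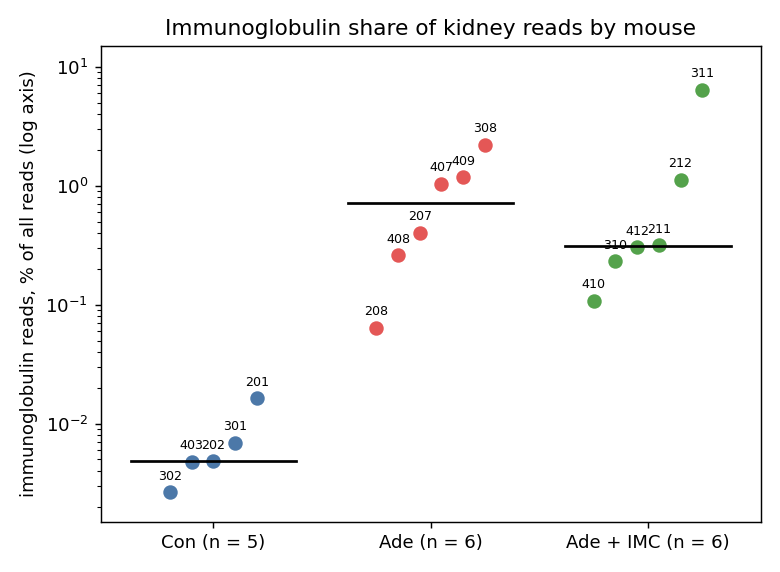
Share of all gene-assigned reads that came from the 183 immunoglobulin genes, in percent on a log axis, with 1 point per kidney and a bar at each group's median. The 5 Con kidneys lie at 0.00265% to 0.0163%, all below the 12 fed kidneys at 0.0641% to 6.44%, and the Ade and Ade + IMC points overlap.

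The make-up of these reads was much steadier than their amount. In the 12 fed kidneys, heavy constant genes took 55.3% to 62.3% of immunoglobulin reads (median 58.8%), light constant genes 20.7% to 25.4% (22.6%), Igkv segments 6.79% to 9.82% (8.83%), Ighv segments 2.99% to 5.81% (4.38%), Jchain 3.25% to 6.49% (4.62%) and Iglv segments 0.393% to 1.65% (0.588%). Between the kidneys with the least and the most immunoglobulin RNA, the part held by heavy constant genes therefore moved by a few points only. Of 183 members, 79 had 0 reads in the 5 Con kidneys, namely 33 Ighv segments, 45 Igkv segments and Ighe. Reads in every fed kidney were found for 59 members, among them 20 Ighv and 28 Igkv segments.

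The heavy constant genes lie side by side on the minus strand of chromosome 12, from Igha (chr12:113254830-113260236) to Ighm (chr12:113418558-113422730) in GRCm38. Ighm was at 13.8, 17.9, 19.1, 11.2 and 14.6 CPM in Con mice 201, 202, 301, 302 and 403. It was at 148 to 8856 CPM in Ade (median 1442) and 351 to 29420 in Ade + IMC (median 900.3), so that neither fed group overlapped Con. The log2 fold change was 7.33 ± 1.01 (SE) in Ade against Con (edgeR, adjusted p = 3.61e-05, n = 6 and 5) and 8.29 ± 1.41 in Ade + IMC against Con (adjusted p = 0.000277, n = 6 and 5), the former being 6.63 without mouse 308 and the latter 5.89 without mouse 311.

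Igha, the class of mucosal secretions, was at 17.8, 5.44, 16.8, 5.71 and 12.3 CPM in the Con mice in the same order. It ranged from 133 to 1247 CPM in Ade (median 586.9) and from 155 to 794 in Ade + IMC (median 350.9), above Con in every kidney. Its log2 fold changes of 5.51 ± 0.60 and 4.86 ± 0.49 had the smallest standard errors of the constant genes (edgeR, adjusted p = 5.11e-06 and 5.19e-06). Mouse 311, which was highest in Ighm by far, had 794 CPM of Igha, not far above the 598 CPM of mouse 412.

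Among the IgG genes, Ighg2c, which C57BL/6 mice carry in place of Ighg2a, was at 30.1, 1.69, 0.613, 0.323 and 0.564 CPM in Con. Its range was 41.1 to 1828 CPM in Ade (median 460.5) and 39.7 to 4715 in Ade + IMC (median 327.0). Mouse 201 thus stood apart from the other Con mice, yet still lay under every fed kidney. The log2 fold change was 6.54 ± 1.30 in Ade (edgeR, adjusted p = 0.000658) and 7.14 ± 1.58 in Ade + IMC (adjusted p = 0.00184) against Con. These became 9.73 and 10.34 without mouse 201, and the latter was 5.92 without mouse 311.

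Ighg2b was at 10.4, 4.93, 0.491, 0.108 and 4.17 CPM in Con, 20.3 to 1138 in Ade and 9.29 to 3752 in Ade + IMC, where mouse 410 lay under Con mouse 201. It rose by 6.67 ± 1.12 in Ade (edgeR, adjusted p = 0.000186; 7.48 without mouse 201) and 7.49 ± 1.53 in Ade + IMC (adjusted p = 0.00106; 6.11 without mouse 311 and 8.31 without mouse 201) on the log2 scale. Ighg3 was at 0.428, 0, 1.60, 0.108 and 0 CPM in Con, 21.0 to 490 in Ade and 1.92 to 263 in Ade + IMC. Its log2 fold changes were 7.86 ± 1.24 (edgeR, adjusted p = 0.000108) and 7.20 ± 1.46 (adjusted p = 0.000988; 6.27 without mouse 311 and 8.50 without mouse 301). Mouse 207 held 490 CPM of Ighg3 against 21.0 to 102 CPM in the other Ade mice, and the Ade value was 6.57 without it and 9.16 without Con mouse 301.

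Ighg1 gave the smallest change of the constant genes. It was at 24.1, 0.389, 2.09, 0.108 and 0 CPM in Con, 6.59 to 110 in Ade and 1.40 to 161 in Ade + IMC, so that mouse 201 lay within both fed ranges. The log2 fold changes were 2.81 ± 0.97 (edgeR, adjusted p = 0.0222) and 3.15 ± 1.24 (adjusted p = 0.0450), and 6.04 and 6.36 without mouse 201. Ighe had 0 reads in the 5 Con kidneys, where 3 reads would be 0.257 to 0.389 CPM, and 15 and 25 reads in all over the Ade and Ade + IMC kidneys. It was too low for the test, and 20 of its reads came from mouse 311.

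Of the light chain constant genes, Igkc (kappa, chr6:70726435-70726966, plus strand, GRCm38) was at 39.9, 9.59, 12.3, 4.10 and 6.88 CPM in Con, 141 to 5208 in Ade (median 1562) and 234 to 12940 in Ade + IMC (median 740.4). Iglc2 (lambda, chr16:19198396-19200351, minus strand) was at 0.257, 0.518, 0.245, 0.108 and 0.790 CPM in Con, 4.04 to 66.9 in Ade and 4.19 to 447 in Ade + IMC. Both were higher in every fed kidney than in any Con kidney. Igkc rose by 6.73 ± 0.98 (edgeR, adjusted p = 5.59e-05; 7.60 without mouse 201 and 6.14 without mouse 308) and 7.35 ± 1.26 (adjusted p = 0.000289; 5.72 without mouse 311 and 8.23 without mouse 201) on the log2 scale. Iglc2 rose by 6.14 ± 0.79 (adjusted p = 2.00e-05) and 7.57 ± 1.61 (adjusted p = 0.0014; 5.22 without mouse 311). Per kilobase of exonic sequence, Iglc2 made up 1.10% to 3.69% of the summed Igkc and Iglc2 level in the fed kidneys (median 1.75%). As the other lambda constant genes had no values, this is not the whole lambda share. Among light chain V reads, Iglv segments took 3.97% to 15.6% in these kidneys (median 6.46%), with 15.6% in mouse 207 and 15.5% in mouse 407. Iglc2 shares 38 exonic bases with the joining segment Iglj2, and Iglc1, Iglc3, Iglc4 and Ighd had no values here.

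Jchain, which links IgM and IgA units and marks cells that secrete antibody, lies on chromosome 5 (chr5:88519809-88527891, GRCm38) outside the immunoglobulin loci. It was at 6.34, 2.46, 4.91, 1.29 and 3.05 CPM in Con, 22.4 to 843 in Ade (median 309.3) and 56.9 to 2414 in Ade + IMC (median 173.9). Every fed kidney was above every Con kidney. The log2 fold change was 6.38 ± 0.88 (edgeR, adjusted p = 3.60e-05) and 6.93 ± 1.13 (adjusted p = 0.000194; 5.29 without mouse 311). Per kilobase, Jchain was at 0.0397 to 0.0990 of the summed heavy constant level in the fed kidneys (median 0.0596) and at 0.0503 to 0.105 in the Con kidneys.

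**Figure D2:**
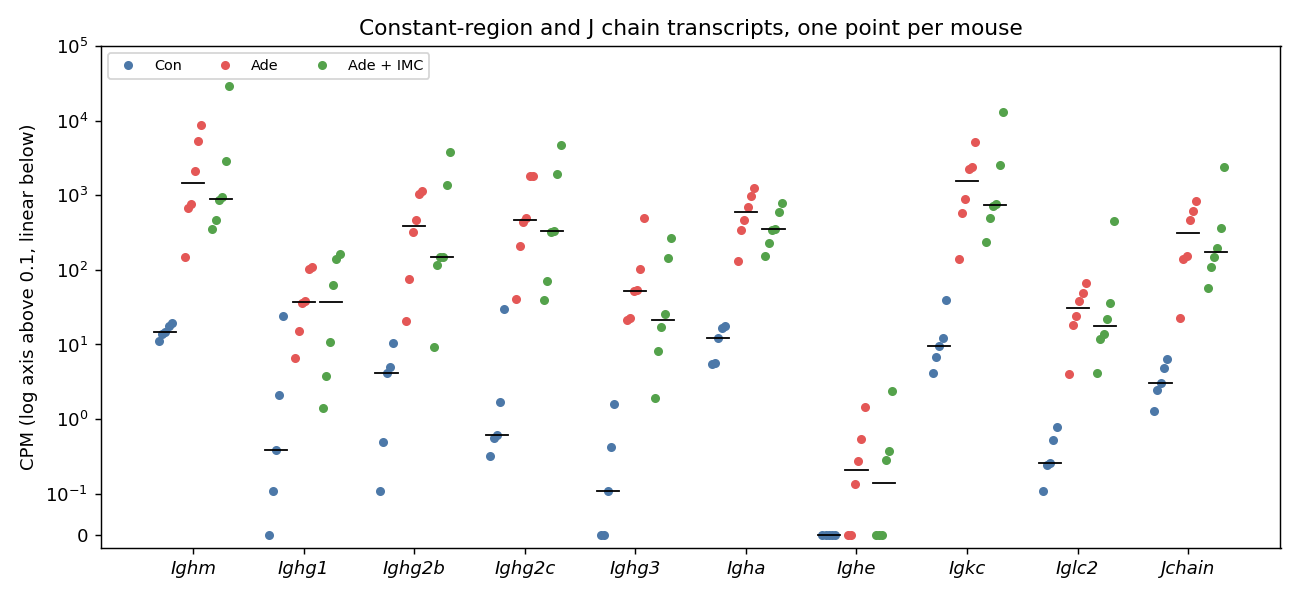
CPM of the constant genes and Jchain in each kidney, on an axis that is logarithmic above 0.1 and linear below, with 1 point per kidney for Con, Ade and Ade + IMC and a bar at each group's median. Ighm runs from 11.2 to 19.1 CPM in Con and from 148 to 29420 CPM in the fed kidneys, whereas for Ighg1 the Con kidney at 24.1 CPM lies among the fed ones.

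To compare the classes within each kidney, reads of the heavy constant genes were divided by exonic length and expressed as shares. Ighm held 14.6%, 64.2%, 54.8%, 70.3% and 53.9% in Con mice 201, 202, 301, 302 and 403, 31.5% to 76.4% in Ade (median 46.6%) and 36.0% to 74.2% in Ade + IMC (median 54.8%). Igha held 13.4%, 13.8%, 34.0%, 25.3% and 32.2% in Con, 6.63% to 26.3% in Ade (median 11.1%) and 1.42% to 28.3% in Ade + IMC (median 16.5%). The IgG genes together held 72.0%, 22.1%, 11.3%, 4.36% and 13.9% in Con, 16.5% to 57.4% in Ade and 12.3% to 56.9% in Ade + IMC. The fed kidneys thus ranged from mostly IgM, as in mice 409 and 311, to mostly IgG, as in mice 207 and 212, in both diet groups. Mouse 311, with the most immunoglobulin RNA, had the lowest Igha share of all kidneys (1.42%), and mouse 212 the next lowest (1.60%).

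Ighg2c was the leading IgG gene in all 12 fed kidneys, with 48.6% to 79.7% of the IgG reads per kilobase. In Con, the lead fell to Ighg2c in mouse 201 and to Ighg2b in mice 202 and 403. It could not be settled in mouse 301, with 17 Ighg1 and 13 Ighg3 reads, nor in mouse 302, with 3 reads of Ighg2c and 1 of each other Ighg gene. Single kidneys departed in the minor classes: Ighg3 held 17.1% in mouse 207 and Ighg1 7.26% in mouse 208. None of 21 comparisons of a class share between groups held after adjustment (two-sided exact permutation tests over mice, 462 or 924 splits, smallest adjusted p = 0.852, smallest possible p = 0.00216). The lowest raw p-values were 0.0606 for Ighe and 0.117 for Igha, both in Ade against Con, where the mean Igha share was 14.2% and 23.7%. Among mice with the same first digit, Igha was 10.4 points lower in Ade + IMC than in Con (exact permutation p = 0.0185, 108 splits, not adjusted), and 8.46 points lower without that restriction (p = 0.236).

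**Figure D3:**
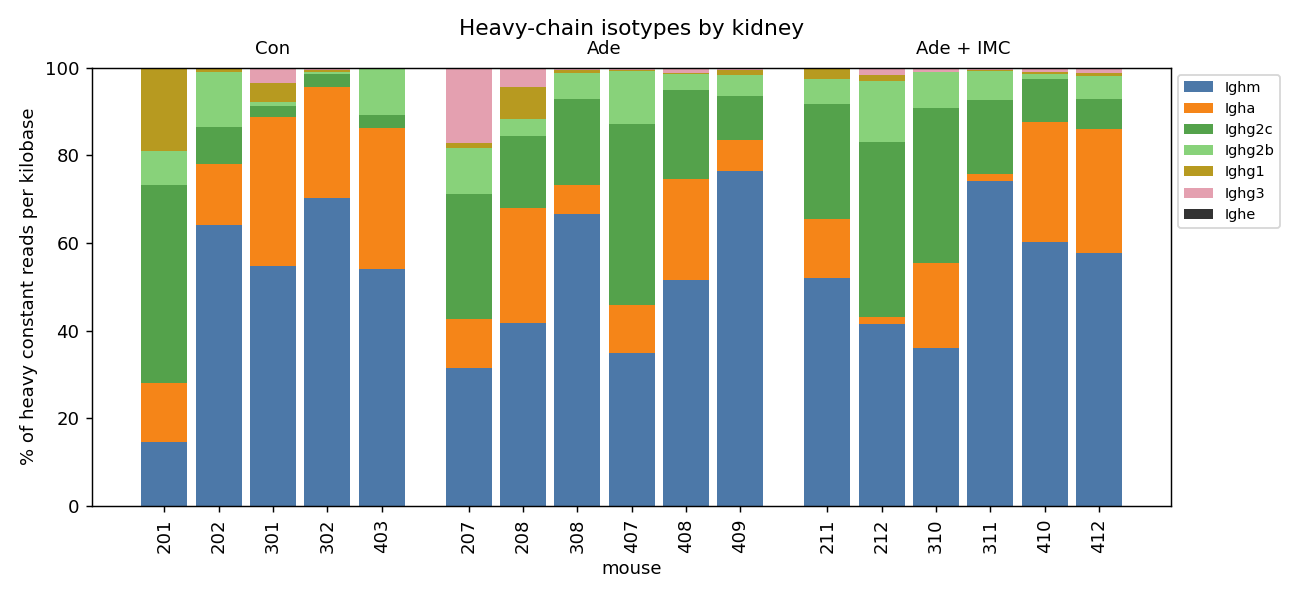
Stacked bars of the share of heavy constant reads per kilobase of exonic length (percent) in each of the 17 kidneys, split by heavy constant gene and ordered by group. Ighm fills 31.5% to 76.4% of the bars of the fed kidneys, and Igha 1.42% to 28.3%.

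Over the V segments, Con kidneys held few reads (7 to 97 Ighv and 12 to 126 Igkv reads each), and segments with 0 Con reads could be set against Con only as a lower bound. In Ade against Con, 53 of the 176 members in this table passed the filter on low counts and 53 were called higher (edgeR, adjusted p below 0.1), while 35.1% of all 14612 tested genes were called higher. Without the filter, 162 of 176 were called higher, where 29.2% of all genes were. Kidneys did not overlap, with every Ade kidney higher, for 64 of 176 members against 28.1% of all genes. In Ade + IMC against Con, 44 members were tested and 44 called higher, where 30.9% of the genes tested were called higher. Without the filter these were 162 of 175, where 25.9% of all genes were. The groups did not overlap for 59 of 176 members, against 25.8% of all genes. In both comparisons 0 members were called lower. With so few Con reads, most V segments could meet the read minimum and the filter only through the fed kidneys, so none of these counts, with or without the filter, lends support of its own and nothing is read from their distance to the shares of all genes. The same limit holds for the adjusted p-values of single V segments given below, several of which were picked as the largest rises.

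By fitted log2 fold change, Ighv1-9, Igkv3-2, Igkv6-20, Ighv9-3 and Igkv4-55 came first in Ade, an order that depends on the prior count for segments with 0 Con reads. Ighv1-9, Igkv6-20 and Ighv9-3 had 0 reads in the 5 Con kidneys, and were at least 424-fold, 194-fold and 128-fold higher by a floor of 3 reads over that group, but at least 151-fold, 102-fold and 54.9-fold without mouse 308. Igkv3-2 rose from 5 reads over the Con kidneys, at 0 to 0.245 CPM, to 2.22 to 508 CPM in Ade (log2 fold change 9.62 ± 2.02, edgeR, adjusted p = 0.001; 8.16 without mouse 308). Igkv4-55 rose from 12 Con reads, at 0 to 0.648 CPM, to 1.82 to 345 CPM (8.52 ± 1.71, adjusted p = 0.000732; 7.91 without mouse 308). The smallest rises beside Ighg1 were those of Ighv10-1 (3.07), Ighv1-18 (4.21), Igkv5-48 (4.51) and Igkv1-110 (4.51). These rested in part on Con mouse 201, and without it they were 6.89, 7.51, 8.12 and 5.30, while Igkv5-48 was 3.71 without mouse 308.

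In Ade + IMC against Con, Igkv3-5, Ighv3-6, Igkv5-39, Igkv3-2 and Ighv1-9 came first in the same order. Igkv3-5, Igkv5-39 and Ighv1-9 had 0 Con reads and were at least 463-fold, 286-fold and 233-fold higher, but at least 52.7-fold, 81.7-fold and 64.0-fold without mouse 311. Ighv3-6 had 3 Con reads, and the ratio of CPM was 2343 with a counting interval of 802 to 11360. That ratio rests on mouse 311 (109 without it), where Ighv3-6 was at 887 CPM, against 0.899 to 14.1 CPM in the other Ade + IMC kidneys. Igkv3-2 had a log2 fold change of 9.87 ± 1.88 (edgeR, adjusted p = 0.00062). It was at 633 CPM in mouse 311 against 0.749 to 65.7 CPM in the other Ade + IMC kidneys. Igkv3-2 passed the filter on low counts in only 6 of the 11 fits that left 1 mouse out. The fit without mouse 311 was among those where it did not pass, so it has no value there, which is not particular to that mouse. The smallest were Igkv5-48 (3.13), Ighg1, Igha, Ighv6-3 (5.32) and Igkv10-94 (5.69), of which Igkv5-48 was 6.71 without mouse 201, Ighv6-3 6.17 without mouse 302 and Igkv10-94 6.36 without mouse 202.

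Iglv1, the most abundant lambda segment, rose from 18 reads over the Con kidneys to 2.61 to 154 CPM in Ade (7.13 ± 1.06, edgeR, adjusted p = 6.62e-05) and 3.15 to 143 CPM in Ade + IMC (6.54 ± 1.23, adjusted p = 0.000562; 5.75 without mouse 311). It led the 3 lambda segments in all 12 fed kidneys, with 56.4% to 96.4% of their reads. Iglv2 and Iglv3 had 2 and 1 Con reads, and the ratios of Ade to Con were 59.3 (16.4 to 489) and 236 (42.3 to 9318). Mouse 311 held 79.8% of all Iglv2 reads, and Iglv2 was at 28.7% of the lambda reads there.

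The Ighv segment with the most reads was mostly a different one from mouse to mouse, whereas some Igkv segments led repeatedly. The leading Ighv segment took 11.0% to 28.1% of the Ighv reads of its kidney (median 16.7%), and 11 segments led in the 12 fed kidneys. In Ade these were Ighv14-4 (11.4% in mouse 207), Ighv1-22 (17.4%, mouse 208), Ighv1-9 (15.7%, mouse 308), Ighv3-6 (16.0%, mouse 407), Ighv1-26 (11.8%, mouse 408) and Ighv1-53 (23.4%, mouse 409). In Ade + IMC they were Ighv1-80 (17.9%, mouse 211), Ighv1-5 (24.6%, mouse 212), Ighv2-9-1 (26.8%, mouse 310), Ighv3-6 (28.1%, mouse 311), Ighv1-55 (11.0%, mouse 410) and Ighv5-17 (12.7%, mouse 412). Only Ighv3-6 led in more than 1 kidney. The second Ighv segment took 7.01% to 14.4%, and the lead was narrow in some kidneys, as in mouse 308, where Ighv1-80 followed at 14.4%, and in mouse 410, where Ighv1-80 at 8.81% lay within the interval of the leader. The 95% intervals (exact binomial, counting error only, since reads are not independent molecules) ran from 12.5% to 23.1% in mouse 208, with 213 Ighv reads, and from 27.6% to 28.7% in mouse 311, where 7370 reads were of Ighv3-6.

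The leading Igkv segment took 10.2% to 31.1% of the Igkv reads (median 20.1%), and only 7 segments led in the 12 fed kidneys. In Ade these were Igkv3-4 (13.7%, mouse 207), Igkv10-96 (10.2%, mouse 208), Igkv3-2 (27.7%, mouse 308), Igkv12-41 (13.6%, mouse 407), Igkv4-91 (20.9%, mouse 408) and Igkv4-55 (31.1%, mouse 409). In Ade + IMC they were Igkv3-2 (19.4%, mouse 211), Igkv3-4 (17.7%, mouse 212), Igkv4-55 (28.8%, mouse 310), Igkv12-89 (27.3%, mouse 311), Igkv3-4 (18.8%, mouse 410) and Igkv3-2 (22.9%, mouse 412). Igkv3-2 and Igkv3-4 led in 3 kidneys each and Igkv4-55 in 2. The second Igkv segment took 6.70% to 18.8%. It was close behind in mouse 212 (Igkv4-55, 14.9%) and in mouse 208, where Igkv3-4 at 7.78% lay within the leader's interval. Igkv3-2, Igkv3-4 and Igkv4-55 are the shared kappa sequences printed above. Of their windows, 78.7%, 65.9% and 46.7% are unique to the gene, where the median over Igkv segments is 73.8%.

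**Figure D4:**
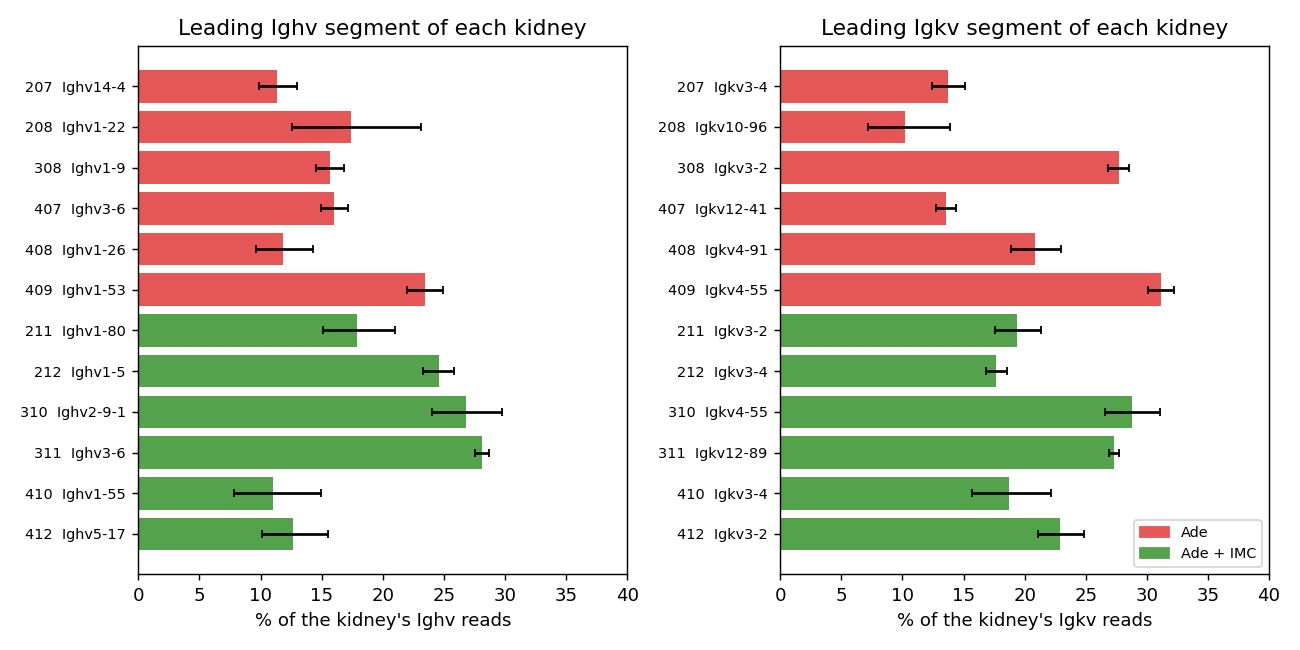
Share of the Ighv reads (left) and Igkv reads (right) taken by the leading V segment of each of the 12 fed kidneys, in percent from 0, with the segment named and bars for the exact 95% binomial interval. Leading shares run from 11.0% to 28.1% for Ighv and from 10.2% to 31.1% for Igkv, under 11 and 7 different segments.

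Some leading segments were high in 1 kidney alone and others in several. Igkv12-89 was high in mouse 311 alone. It was at 0, 0, 0.245, 0.216 and 0 CPM in Con, 0 to 5.72 in Ade and, in Ade + IMC, at 9.60, 3.24, 0, 1670, 0 and 0.437 CPM in mice 211, 212, 310, 311, 410 and 412. Mouse 311 held 13867 of its 14028 reads (98.9%), its median share over the 12 fed kidneys was 0.198% of Igkv reads and its next highest share was 3.10%. No base of its printed sequence lies in a window shared with another gene. Ighv3-6, also led by mouse 311, was spread more widely: 85.5% of its reads came from that kidney, but its share was 1.81% to 28.1% over the 12 fed kidneys with a median of 4.50%.

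Ighv2-9-1, Igkv4-91 and Igkv12-41 also led in 1 kidney and were at 2.63% or less in the others. Ighv2-9-1 was at 26.8% in mouse 310 against 2.63% in the next kidney and a median of 0.585%. Igkv4-91 was at 20.9% in mouse 408 against 2.35% in the next (median 0.483%), and Igkv12-41 at 13.6% in mouse 407 against 1.95% (median 0.756%). Ighv1-22 (17.4% against 6.51%), Ighv1-55 (11.0% against 2.60%) and Ighv5-17 (12.7% against 5.58%) showed smaller gaps.

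Other leading segments were high in several kidneys. Igkv4-55 took 1.17% to 31.1% of the Igkv reads of the fed kidneys (median 11.6%), Igkv3-2 0.838% to 27.7% (median 6.93%) and Igkv3-4 0.616% to 18.8% (median 2.85%). Igkv10-96, the fifth kappa segment by reads, was found in all 12 fed kidneys at 0.830% to 10.2% (median 2.64%). In CPM, Igkv3-4 was at 49.1, 3.39, 40.2, 31.4, 2.83 and 13.9 in Ade mice 207, 208, 308, 407, 408 and 409 and at 3.67, 179, 4.07, 688, 16.8 and 1.75 in Ade + IMC mice 211, 212, 310, 311, 410 and 412. Igkv4-55 was at 4.19, 1.82, 345, 57.5, 22.2 and 319 CPM and at 41.7, 151, 63.3, 189, 11.4 and 17.5 CPM in these mice. The kidney that was highest differed between them: mouse 311 for Igkv3-4 and mouse 308 for Igkv4-55. Ighv1-53 (median 5.39%), Ighv1-80 (4.97%) and Ighv1-26 (3.69%) were the corresponding heavy segments, and Ighv1-5 (2.57%) and Ighv1-9 (2.80%) had lower medians. Ighv1-53 and Ighv1-26 are unique in only 42.4% and 51.0% of their windows.

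**Figure D5:**
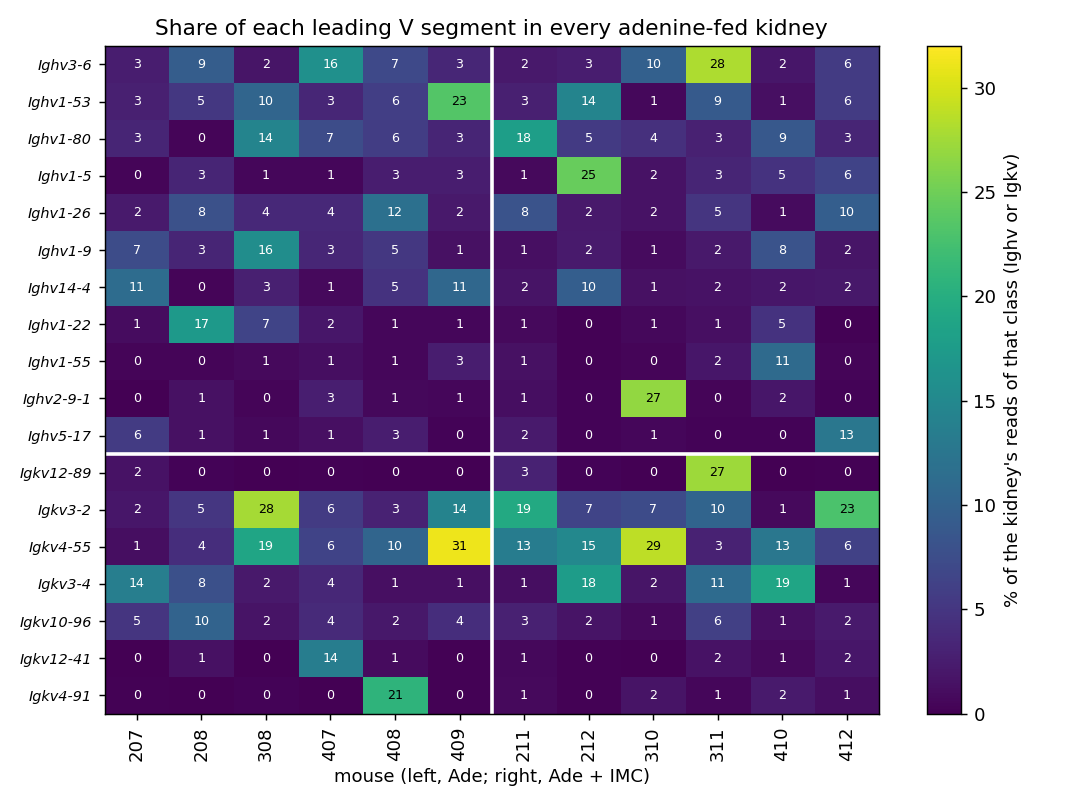
Coloured grid of the share of Ighv or Igkv reads (percent) taken by each segment that led in at least 1 fed kidney. Segments are rows, the 12 fed kidneys are columns, and each cell holds the rounded percent. Igkv12-89 has 1 kidney at 27.3% and the rest at 3.10% or less, whereas Igkv4-55 is spread from 1.17% to 31.1%.

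Below the leading segment, the repertoires were broad. The 5 largest segments took 37.5% to 59.2% of the Ighv reads (median 46.7%) and 36.5% to 62.0% of the Igkv reads (median 52.2%) of the fed kidneys. The effective number of segments (the inverse Simpson index, which is the number of equally used segments that would give the same chance of drawing the same segment again) was 9.66 to 22.8 for Ighv (median 16.1) and 7.50 to 23.2 for Igkv (median 13.0). By group, the medians were 16.2 in Ade and 13.2 in Ade + IMC for Ighv, and 16.4 and 12.4 for Igkv, within overlapping ranges. When every fed kidney was brought to the same number of reads, 213 for Ighv and 334 for Igkv, 35.4 to 46.2 Ighv segments and 44.2 to 52.8 Igkv segments were expected to be seen. In mouse 311, which held 55.0% of all Ighv and 54.3% of all Igkv reads, 46.2 Ighv segments were expected at that depth, the highest value of the 12 kidneys. By the effective number, however, mouse 311 was near the low end, at 9.87 for Ighv and 9.25 for Igkv. Many segments were thus seen there, while a few took much of the reads. Grouped by family, Ighv1, with 42 of the 84 heavy segments, led in all 12 fed kidneys with 40.7% to 74.0% of Ighv reads. Among kappa families Igkv3 led in 6, Igkv4 in 5 and Igkv12 in 1 fed kidney, the last being mouse 311 at 32.3%.

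Between Ade + IMC and Ade, which asks whether IMC changed immunoglobulin RNA under the adenine diet, 0 of 132 tested members were called by limma (0 also at an unadjusted p below 0.05), where 0% of all 14696 genes were called and 988 had an unadjusted p below 0.05. By edgeR and DESeq2 on the recovered reads, 0 members were called too, with 6 of 88 and 10 of 183 at an unadjusted p below 0.05 (6.82% and 5.46%), against 6.72% and 5.69% of all genes. DESeq2 called 37 genes in all. The paper reports far more genes lower and higher between these groups, by DESeq2 at the same threshold, and the reason for the gap was not tested. No member separated the groups (0 of 183, against 0.249% of all genes). The log2 fold changes, on the log2(normalized count + 1) scale, had a median of -0.02, with 65 of 132 above 0 and a range from -1.73 (Igkv13-84) to 2.06 (Ighv5-9-1). That even split held when the filter alone was lowered to a mean of at least 1 (median -0.02, 87 of 178 above 0). It did not hold with the other tools, which differ in scale and filter together. The median was 0.54 by edgeR, with 57 of 88 above 0, and 0.62 by DESeq2, with 125 of 183. With each mouse left out, the median ran from -0.77 without mouse 311 (16 of 113 tested members above 0) to 0.45 without Ade + IMC mouse 410 (87 of 133). It was -0.55 without Ade mouse 208, 0.33 without Ade mouse 308 and 0.28 without Ade mouse 407.

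For the constant genes, the log2 fold changes of Ade + IMC against Ade were 0.14 ± 1.13 for Ighm (limma, adjusted p = 0.988), -0.64 ± 1.13 for Ighg1, -0.15 ± 1.34 for Ighg2b, -0.13 ± 1.19 for Ighg2c, -1.26 ± 1.09 for Ighg3 (adjusted p = 0.834), -0.47 ± 0.53 for Igha (0.885), 0.06 ± 0.98 for Igkc, 0.06 ± 0.95 for Iglc2 and 0.13 ± 0.95 for Jchain. Each was smaller than its standard error except that of Ighg3. Differences of the size of these standard errors, 0.53 to 1.34 on the log2 scale, were not detectable with 6 mice a group. Igkv12-89, for all its abundance in mouse 311, differed by 1.67 ± 1.94 (adjusted p = 0.89).

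The lists of genes that follow were compiled from general knowledge of these cells, and values are log2 fold changes against Con. Of 16 plasma cell genes, 15 were tested in Ade against Con and 10 called higher (35.1% of all tested genes were), with Sdc1, the plasma cell surface proteoglycan that epithelia also express, at 2.35 ± 0.19 (edgeR, adjusted p = 3.17e-07) and Xbp1, the regulator of the secretory programme, at 0.43 ± 0.11 (adjusted p = 0.00439). Txndc5 (0.26) and Ell2 (-0.09) did not pass. Pou2af1 (6.03 ± 0.86, adjusted p = 4.93e-05), Irf4 (3.42 ± 0.48, adjusted p = 4.60e-05) and Mzb1 (3.29 ± 0.73, adjusted p = 0.00151), chosen once their values were known, rose as well. In Ade + IMC against Con 10 of 15 were called higher (30.9% of all tested genes), and against Ade 0 of 15 were called. The summed level of this list was 395 to 472 CPM in Con, 690 to 1198 in Ade and 575 to 2388 in Ade + IMC, with mouse 311 at the top.

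Of 20 B cell genes, 18 of 19 tested were higher in Ade (35.1% of all tested genes were) and 16 of 17 in Ade + IMC (30.9%) against Con, among them Cd22, an inhibitory receptor of B cells (4.59 ± 0.47, edgeR, adjusted p = 2.77e-06 in Ade), Cd72 (2.53), Blnk (0.89) and Ebf1 (0.61). Cr2 (-0.68 in Ade and -0.11 in Ade + IMC) did not pass. The summed level of the B cell genes was 57.3 to 70.0 CPM in Con, 205 to 557 in Ade, highest in mouse 308, and 157 to 1108 in Ade + IMC, highest in mouse 311. Those kidneys also held the most immunoglobulin RNA of their groups. Of 13 T cell genes, all were higher in both comparisons with Con, where 35.1% and 30.9% of all tested genes were, such as Cd4 (3.62), Lck (3.41), Cd3g (3.99) and Cd2 (4.41) in Ade. Their sum was 10.3 to 16.5 CPM in Con, 100 to 348 in Ade and 90.6 to 499 in Ade + IMC, again highest in mice 308 and 311. The part of these cell types in the immunoglobulin results was not tested.

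Genes of class switching and of the germinal centre, where B cells are selected, were sparse. Of 12 on the list, 8 were listed and 4 tested: Bcl6 (0.84), S1pr2 (2.15), Fas (0.63) and Ung (1.03), all called higher in Ade (edgeR; 35.1% of all tested genes were) and also in Ade + IMC (30.9%) against Con. Of the 8 genes of follicular stroma and high endothelium, 3 of 4 tested were higher in Ade (35.1% of all tested genes), namely Clu (1.91), Pdpn (2.54) and Il7 (0.94), and Cr2 (-0.68) did not pass.

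Among signals that draw and sustain B cells, 6 of 9 tested were higher in Ade (35.1% of all tested genes) and 5 of 8 in Ade + IMC (30.9%) against Con. Vcam1, the adhesion ligand of lymphocytes, rose by 3.98 ± 0.20 in Ade (edgeR, adjusted p = 9.92e-09), and Tgfb1 rose by 1.74. Cxcl12 (-0.39) and Ccl28 (0.06) did not pass. Tnfsf13b, which encodes the survival factor BAFF, rose by 3.04, and Cxcl13, the chemokine of B cell follicles, by 4.43. Both were chosen once their values were known. The sum of the list was 257 to 378 CPM in Con, 690 to 899 in Ade and 616 to 996 in Ade + IMC.

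Of the receptors and carriers of antibody, 8 of 10 tested were higher and 2 lower in Ade against Con, where 35.1% of all tested genes were higher and 32.2% lower. Fcer1g, the signalling chain of activating Fc receptors, rose by 3.24, the inhibitory receptor Fcgr2b by 0.67 and Pigr, the epithelial carrier of polymeric IgA and IgM, by 1.36 ± 0.17 (edgeR, adjusted p = 1.60e-05). Fcgrt, the neonatal receptor that salvages IgG, fell by 0.44 ± 0.15 (adjusted p = 0.0177), as did Fcamr, a receptor for IgA and IgM (fell by 1.25). In Ade + IMC against Con 7 were higher and 2 lower of 9 tested (30.9% and 32.3% of all tested genes), and against Ade 0 of 10 were called.

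Genes of kidney cells and of adipocytes were followed as markers of what else the samples held. Of 10 kidney genes, 7 were lower in both fed groups against Con (32.2% of all genes tested in Ade and 32.3% in Ade + IMC were lower), with Kap fallen by 2.10, Slc34a1 by 1.73 and Lrp2 by 2.65 in Ade, and Umod (-0.33) not passing. Their summed level was 23780 to 29730 CPM in Con, 7303 to 16660 in Ade and 10980 to 21640 in Ade + IMC. Of the 9 adipocyte genes, 3 of 4 tested were higher in Ade (35.1% of all tested genes), namely Car3 (2.08), Cfd (3.22) and Plin4 (0.92), with Fabp4 (0.44) not passing, and 4 of 4 in Ade + IMC (30.9%), including Fabp4 (1.86). Their sum ran from 42.8 to 99.5 CPM in Con, 88.8 to 478 in Ade, highest in mouse 207, and 54.8 to 1602 in Ade + IMC, highest in mouse 212. The defining adipocyte genes Adipoq and Plin1 were at 0 in some kidneys of each group, and mouse 311 had 0.241 and 0 CPM of them and a list sum of 64.3 CPM, within the Con range. No list held a gene called between Ade + IMC and Ade (limma).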

How the data were processed

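Kidney RNA was sequenced as single-end 50-base reads, and 17 of the 21 mice were analysed; the 4 Con + IMC mice were not analysed here. The groups were taken from the treatment labels. The mouse numbers are those in the sample titles, and the meaning of their first digit (2, 3 or 4) is not stated. Nothing else links mice across groups. The members and the gene lists were chosen with earlier results of these data known.

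The authors deposited the raw count of each gene for the Con and Ade mice. A second table covers the Ade and Ade + IMC mice, in which the values the authors deposited are a signal, namely counts scaled by DESeq2 size factors. The study's methods name STAR on mm10, whereas the submitters' processing notes list Trimmomatic 0.39, FastQC 0.11.8, Bowtie2 2.2.5, HTSeq 0.9.1 and DESeq2. The annotation release, the use of strand and the treatment of reads that match several segments are not given in the sources used here. The deposited tables also hold the authors' fold changes and p-values of their own comparison, which were not used. Dividing the normalized values by the worth of 1 read gave whole numbers for 100% of them (within 0.01). In the Ade mice, 0 recovered values were unlike the raw count. Since the tables leave out genes with at most 4 reads in all, a gene listed in 1 table only was set to 0 in the other mice for shares and composition. CPM are per 1000000 reads assigned to genes. Libraries of 1 group differed by more than counting noise (chi-square over degrees of freedom at least 4.21).

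Ade against Con and Ade + IMC against Con were compared by edgeR 4.0.16 (quasi-likelihood test, TMM, its own filter on low counts). The second used recovered reads and the genes listed in both tables. Ade + IMC against Ade was compared by limma 3.58.1 (trend option, log2(normalized count + 1)) for genes with a mean of at least 10, because the main values are normalized rather than counts. The model was to have been edgeR for this comparison too, which became an alternative. Calls were made at an adjusted p (Benjamini-Hochberg) below 0.1, as in the study's methods. DESeq2 1.42.0 was an alternative, and R 4.3.3, numpy 2.4.6 and scipy 1.17.1 were used. An adjusted p that DESeq2 leaves out was counted as missing, which applied to 9, 59 and 79 members in Ade against Con, Ade + IMC against Con and Ade + IMC against Ade. Each model was checked on simulated data with known changes. Since nothing says otherwise, each mouse was taken as 1 replicate. Class shares were compared by two-sided exact permutation of mice. Intervals of shares are exact binomial and cover counting error only.

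The genes named are the constant genes and Jchain, the 5 segments with the most reads in each V class, the leading segments of each fed kidney, the 5 largest rises and falls by fitted log2 fold change among called members (0 fell), the 4 most abundant tested genes of each list, and Apoe. The smallest rises, Igkv13-84, Ighv5-9-1, Fcamr and the adipocyte genes at 0 were picked with their values known. The result of 1 listed gene is not reported here. Coordinates and transcripts are from GENCODE vM21 (GRCm38). Alternatives changed the scaling, tool, filter, threshold, pseudocount, mice and block. The block fitted with edgeR and the fits without mice 308 and 201, or 308 and 311, were added after the data were examined.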

Additional observations from a re-analysis of the deposited data

Results flagged for a closer look

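A kidney was singled out where its distance to the nearest other kidney of its group was over Dixon's 95% critical value. Of 67 groups tested 19 were singled out, where about 3 (1 in 20) would be for independent, normally distributed quantities. The quantities here overlap, as with the CPM and the share of 1 gene in the same mice. The 19 are therefore a list for inspection, and nothing is read from their distance to 3.

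Mouse 311 (Ade + IMC) stood apart in the most quantities. Its immunoglobulin share was 6.44% of reads, against 0.107% to 1.12% in the other mice of the group. Jchain was at 2414 CPM (56.9 to 364.8 in the others), Ighm at 29420 CPM (351 to 2858), Ighg2b at 3752 CPM (9.29 to 1356), Igkc at 12940 CPM (234 to 2569), Iglc2 at 446.5 CPM (4.19 to 35.6) and Ighe at 2.41 CPM (0 to 0.373). B cell, T cell and plasma cell genes were also highest in this mouse, as given above, and its adipocyte genes were within the Con range.

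In Ade, mouse 308 had 1.47 CPM of Ighe (0 to 0.539 in the others). Mouse 207 had 490.3 CPM of Ighg3 (21.0 to 102.1) and an Ighg3 share of 17.1% of heavy constant reads per kilobase (0.573% to 4.42%). Mouse 208 had an Ighg1 share of 7.26% (0.180% to 1.29%).

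In Con, mouse 201 had 24.1 CPM of Ighg1 (0 to 2.09), 30.1 CPM of Ighg2c (0.323 to 1.69) and 39.9 CPM of Igkc (4.10 to 12.3). Its shares were 18.6% for Ighg1 (0% to 4.34%) and 45.3% for Ighg2c (2.50% to 8.60%). Mouse 301 had 1.60 CPM of Ighg3 (0 to 0.428) and an Ighg3 share of 3.43% (0% to 0.508%). In Ade + IMC, mouse 310 had an Ighe share of 0.0257% (0% to 0.00723%), which rests on few reads.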

How the results depend on the processing

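Against Con, the members tested under an alternative were higher there too, while the number called varied with the filter and the tool. That direction lends no support of its own, since 79 of 183 members had 0 Con reads. Most V segments also met the filter only through the fed kidneys. The counts for Ade and Ade + IMC against Con were 143 of 176 and 101 of 175 tested by DESeq2 (27.1% and 25.6% of all genes were higher), 162 of 176 and 162 of 175 without a filter (29.2% and 25.9%) and 100 and 104 of 105 in 1 fit over 17 mice (35.4% and 34.7%). With each mouse left out, they ran from 25 of 25 tested to 74 of 75, and from 22 of 22 to 66 of 66. The filter set these numbers, since nearly every member tested was called. In Ade without mouse 308, where 25 were called, 4867 of all 14392 genes were higher. In Ade + IMC without mouse 311, where 22 were called, 4278 of 14364 were. A block on the mouse number's first digit left 53 of 53 and 44 of 44 called, where 5094 of 14612 and 4475 of 14578 genes were higher. Between Ade + IMC and Ade, 0 members were called under any alternative, though that block gave 133 genes in all by limma and 104 by edgeR. The median of the members was -0.34 and -0.19 there and 0.54 by edgeR and 0.62 by DESeq2 without it, and it was -0.50 without mice 308 and 311. Replicate numbers follow the order of accession and pair no mice, so the block used that digit alone.

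Signs that turned in Ade + IMC against Ade belong to changes under their standard error. By edgeR and DESeq2, Ighg1 was 0.34 and 0.34, Ighg2b 0.83 and 0.86 and Ighg2c 0.61 and 0.63. With the replicate block and then without mice 308 and 311, Ighm was -0.21 and -0.19, Igkc -0.26 and -0.20, Iglc2 -0.33 and -0.48 and Jchain -0.13 and -0.16. With each mouse left out the ranges were -1.22 to 0.11 for Ighg1, -0.96 to 0.77 for Ighg2b, -0.86 to 0.52 for Ighg2c, -0.72 to 0.67 for Ighm, -0.64 to 0.52 for Igkc, -0.77 to 0.57 for Iglc2 and -0.55 to 0.54 for Jchain. The cause was not tested.

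Class share differences also turned sign. As shares of reads, they were 0.265 points for Ighg2c in Ade + IMC against Ade and 2.72 for Ighm in Ade against Con. With each mouse left out, those of Ade + IMC against Ade ranged from -1.53 to 3.84 points for Igha, -0.00382 to 0.00133 for Ighe, -1.23 to 0.198 for Ighg1, -1.39 to 1.16 for Ighg2b, -3.70 to 3.53 for Ighg2c and -0.954 to 8.37 for Ighm. Against Con they ranged in Ade + IMC from -1.19 to 1.80 for Ighg2b, -0.154 to 0.702 for Ighg3 and -7.19 to 6.74 for Ighm. In Ade they ranged from -4.32 to 0.334 for Ighg1, -1.22 to 1.78 for Ighg2b and -10.4 to 3.57 for Ighm. None of these differences passed a test.

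By family, the median leading share was 52.8% in Con, 54.7% in Ade and 55.4% in Ade + IMC for Ighv, and 20.7%, 26.0% and 27.9% for Igkv. The expected number of segments at fixed reads had medians of 42.3 and 43.4 for Ighv and 47.8 and 48.0 for Igkv in Ade and Ade + IMC, on another scale than the effective number. Depth limits the Con repertoires, with 7 to 126 reads per kidney and locus.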
